A study of Zea mays with 12 samples.

Results

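The microRNA genes of the maize inbred line B73, other than those of the copper-responsive families MIR398, MIR408 and MIR528, were described family by family. Members were the features of the B73 table whose identifier starts with zma-MIR, and the 3 copper-responsive families were set apart by name. The rule itself uses no measured value. There were 149 such genes among 45577 B73 features. They fell into 25 families by the number in their name and lay on all 10 chromosomes. The study recorded m6A, RNA levels and polysome-bound RNA in B73 and Mo17, another inbred line. The groups used here were B73 polysome-bound RNA (2 libraries), B73 total RNA (2 libraries) and B73 m6A-seq (2 peak lists). All came from seedlings 14 days old, kept at 28 °C during 16 h of light and at 25 °C during 8 h of darkness, with no other treatment and no allele given. The sources used here do not say which organs were sampled. The Mo17 table held 37843 features and no identifier of a microRNA gene, so Mo17 is not described.

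A microRNA gene is transcribed into a primary transcript that folds back into a hairpin. DICER-LIKE1 cuts the hairpin in the nucleus, and the released small RNA guides ARGONAUTE1 to complementary messenger RNAs, which are cut or held back from translation. Plant microRNA families are often large, because copies arose by genome and tandem duplication, and the copies of a family make the same or nearly the same small RNA. The values here are FPKM (fragment counts scaled to feature length and library size) on the hairpin span, and small RNA libraries were not used. They therefore describe precursor transcripts that cover the span, not the mature microRNA. The spans were 32 to 270 bp long with a median of 124 bp, so a few fragments set a value. Of the 149 names, 148 matched a symbol in RefSeq's table of the NAM-5.0 assembly, and 147 of these had the same length there. MIR482 spanned 32 bp in the B73 table, against 122 bp in RefSeq. Coordinates are those of the deposited tables (B73 RefGen_v4). The files pair no names with the identifiers of the other gene models, so neither the microRNA processing enzymes nor seedling marker genes could be looked up.

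Most copies were not seen. Of the 149 genes, 101 were listed at 0 in all 4 libraries, 48 were above 0 in at least 1, and 12 were above 0 in all 4. The 12 include MIR156g, which reached no more than 0.0113 FPKM in any library. In polysome RNA 20 genes (13.4%) were above 0 in both libraries, against 18 (12.1%) in total RNA. An FPKM of 1 was reached in both libraries by 3 genes in polysome RNA and by 8 in total RNA. Single libraries listed 25 and 36 genes above 0 in polysome RNA, against 32 and 24 in total RNA. The libraries within a group thus differed as much as the groups. Of the genes above 0 somewhere, 10 were above 0 in polysome RNA alone and 7 in total RNA alone. The depth behind an FPKM is unknown, so a value of 0 is not shown to be absence of the transcript.

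Other short features were listed at 0 somewhat less often. The share at 0 in all 4 libraries was 67.8% of the microRNA genes, against 59.1% of 1512 ENSRNA features (non-coding RNA predictions) and 58.9% of 2970 Zm gene models whose lengths lay in the same range. The match is of the range alone: median lengths were 124 bp for the microRNA genes, 90 bp for those ENSRNA features and 73 bp for those Zm models. ENSRNA features that overlap microRNA genes were not left out, and 118 ENSRNA features do so on the same strand. The groups are therefore not fully separate loci. Above 0 in both total RNA libraries were 12.1% of the microRNA genes, against 32.6% of those ENSRNA features and 22.7% of those Zm models. In both polysome libraries the shares were 13.4% of the microRNA genes, 18.8% of the ENSRNA features and 15.5% of the Zm models. Span length did not separate seen from unseen microRNA genes: the median was 123.5 bp for those above 0 in all 4 libraries, 126.5 bp for those above 0 in some and 123 bp for those at 0 in all.

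**Figure D1:**
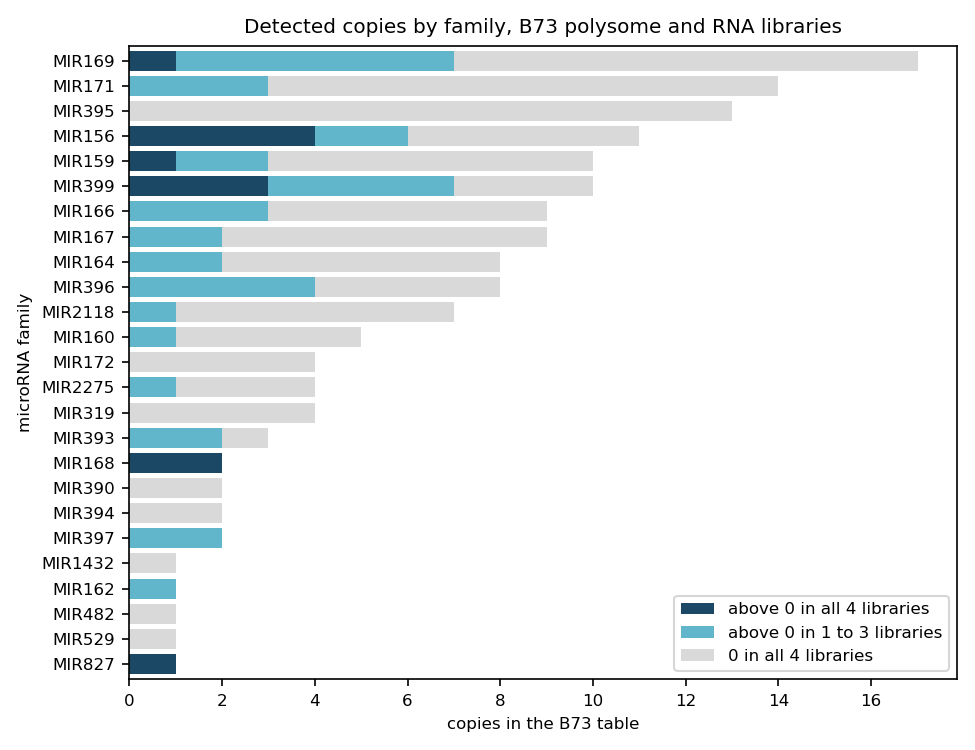
Number of gene copies in each of the 25 microRNA families of B73 (horizontal bars, copies), split by whether a copy was above 0 in all 4 libraries, in some or in none. MIR395 with 13 copies has none above 0. MIR156 with 11 copies has 4 above 0 in all 4 libraries, and both copies of MIR168 are. The 4 MIR156 copies include MIR156g, at no more than 0.0113 FPKM.

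Families differed in how many copies were seen. The largest, MIR169, had 7 of 17 copies above 0 in some library and 1 in all 4. MIR399 had 7 of 10 copies above 0 and 3 in all 4, MIR156 had 6 of 11 and 4, and both MIR168 copies were above 0 in all 4. At the other end, 8 families with 28 copies in all were listed at 0 throughout: MIR395, MIR172, MIR319, MIR390, MIR394, MIR1432, MIR482 and MIR529. A copy above 0 in both libraries was found in 10 families in polysome RNA and in 8 families in total RNA. The FPKM of all 149 genes summed to 22.0 and 34.1 in polysome RNA, against 46.1 and 25.7 in total RNA. MIR156, MIR168, MIR169 and MIR399 together held 83.7% and 85.2% of that sum in polysome RNA, against 85.2% and 74.7% in total RNA.

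The families of developmental timing came out unequally. miR156 and the related miR529 restrain SPL transcription factors and hold plants in the juvenile phase, and miR172, which restrains AP2-type factors, acts later. MIR156d (chromosome 5, 94725847 to 94725965, minus strand) had FPKM of 1.10 and 0.622 in polysome RNA, against 1.53 and 3.25 in total RNA. MIR156e (chromosome 2, 33005026 to 33005151, plus strand) had 0.243 and 0.424 in polysome RNA, against 3.64 and 2.23 in total RNA. For both, each polysome library lay below each total RNA library. MIR156k had 0.877 and 0.619 in polysome RNA, against 0.930 and 0.749 in total RNA, and its groups overlapped. MIR156f was listed at 0 in both polysome libraries and had 0.341 and 0.588 in total RNA, and MIR156j was at 0 in polysome RNA and had 1.30 and 0.336 in total RNA. MIR156g was above 0 in all 4 libraries but only nominally, at 6e-06 and 0.00642 in polysome RNA against 2e-05 and 0.0113 in total RNA. An ENSRNA feature on its strand covers 96.7% of it. That feature had 0.738 and 0.278 in polysome RNA, against 3.56 and 0.774 in total RNA. The other 5 MIR156 copies, the 4 MIR172 copies and MIR529 were at 0 throughout.

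Among the families tied to auxin and to the growth of organs, precursor signal was low apart from MIR393c in total RNA. miR393 restrains the TIR1/AFB auxin receptors, miR160 and miR167 restrain auxin response factors, and miR390 starts the production of small RNAs that restrain other such factors. MIR393c (chromosome 10, 149451810 to 149451906, minus strand) had FPKM of 0 and 0.164 in polysome RNA, against 1.46 and 2.68 in total RNA. Its groups did not overlap. MIR393a had 0.2997 and 0.499 in polysome RNA, against 0.330 and 0 in total RNA. MIR160b showed the other pattern, with 0.260 and 0.458 in polysome RNA and 0 in both total RNA libraries. The most abundant of the 9 MIR167 copies, MIR167g, had 0 and 0.0847 in polysome RNA, against 0.348 and 0 in total RNA. Neither MIR390 copy was above 0.

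Other regulators of transcription factors were above 0 in some library in 3 of 10 MIR159 copies, 2 of 8 MIR164, 3 of 9 MIR166, 3 of 14 MIR171, 4 of 8 MIR396 and 0 of 4 MIR319 copies. miR159 and miR319 restrain MYB and TCP factors, miR164 restrains NAC factors, miR166 the HD-ZIP III factors of leaf polarity, miR171 GRAS factors and miR396 growth-regulating factors. MIR159f, with 0.347 and 0.266 in polysome RNA against 0.528 and 0.884 in total RNA, was the only one of 10 MIR159 copies above 0 in all 4 libraries. MIR159e was above 0 in 1 polysome library alone, at 0.290. MIR164c had 0 and 0.688 in polysome RNA, against 0.464 and 0 in total RNA, and MIR166c had 0 and 0.0907 in polysome RNA, against 0 and 0.794 in total RNA. Each of these genes was listed at 0 in 1 library of each group. MIR396a had 0.421 and 0.384 in polysome RNA, against 0.301 and 0 in total RNA. Of 14 MIR171 copies, 3 were above 0, each in 1 library: MIR171m reached 0.794 and MIR171g 0.471 in polysome replicate 2, and MIR171e 0.153 in total RNA replicate 2.

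The MIR169 family, whose small RNAs restrain NF-Y subunits, had 1 copy above 0 in all 4 libraries and a pair of facing copies above 0 in 3. MIR169i (chromosome 4, 49299338 to 49299528, plus strand) had FPKM of 0.900 and 1.65 in polysome RNA, against 1.52 and 1.06 in total RNA, so the groups overlapped. MIR169e had 0 and 0.146 in polysome RNA, against 0.534 and 1.56 in total RNA. MIR169h had 0 and 0.143 in polysome RNA, against 0.524 and 1.54 in total RNA. MIR169e and MIR169h lie on opposite strands of the same stretch of chromosome 4 (49625356 to 49625483 and 49625355 to 49625482). Their values hardly differ, and the sources used here do not give the strand setting of the authors' counting, so their reads cannot be told apart. MIR169d had 0 and 1.19 in polysome RNA, against 0.292 and 0 in total RNA, and MIR169j was seen in total RNA replicate 1 alone, at 0.872.

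Nutrient families held both the highest mean levels and the largest family listed at 0 throughout. miR399 restrains PHO2, an enzyme that limits phosphate uptake, and its genes are switched on by phosphate shortage. MIR399e (chromosome 2, 16763309 to 16763432, minus strand) had FPKM of 8.08 and 12.8 in polysome RNA, against 8.56 and 1.93 in total RNA. MIR399j (chromosome 9, 24309478 to 24309652, minus strand) had 3.99 and 6.76 in polysome RNA, against 4.81 and 2.31 in total RNA. Both genes were highest in polysome replicate 2 and lowest in total RNA replicate 2, and their groups overlapped. MIR399e held 63.3% and 59.6% of its family's FPKM in polysome RNA, against 60.1% and 43.3% in total RNA. MIR399c had 0.449 and 0.511 in polysome RNA, against 0.415 and 0.213 in total RNA, which do not overlap. Such separation, with polysome RNA higher, was found in 50.1% of features whose FPKM reached 1 in 2 or more libraries. MIR399c did not reach that level. MIR399f had 0.198 and 0.240 in polysome RNA and was at 0 in both total RNA libraries. The family as a whole took 58.0% and 62.9% of the FPKM of all 149 genes in polysome RNA, against 30.9% and 17.3% in total RNA. Its summed FPKM overlapped between the groups, at 12.8 and 21.4 in polysome RNA against 14.3 and 4.45 in total RNA, and the share in total RNA replicate 1 is lowered by the MIR168a value in that library.

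The remaining nutrient families were low or at 0. MIR827, of a family that in Arabidopsis and rice acts on SPX-domain genes of phosphate homeostasis, had 0.171 and 0.279 in polysome RNA, against 0.344 and 0.263 in total RNA. miR397 restrains laccases. MIR397b was seen in replicate 1 of each library type, at 0.740 in polysome RNA and 0.998 in total RNA, and MIR397a in total RNA replicate 1 alone, at 0.541. The sulfate family MIR395, which is known to be induced by sulfate shortage, had all 13 copies at 0.

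miR168 and miR162 act back on the pathway itself, on ARGONAUTE1 and DICER-LIKE1. MIR168a (chromosome 5, 76534928 to 76535031, minus strand) had FPKM of 0.498 and 1.54 in polysome RNA, against 12.2 and 1.07 in total RNA. The value of 12.2 in total RNA replicate 1 stood apart, and without it total RNA would lie within the polysome range. MIR168b (chromosome 4, 244520636 to 244520739, minus strand) had 1.60 and 1.11 in polysome RNA, against 1.35 and 2.33 in total RNA, with overlapping groups. MIR162 had 0.610 and 0 in polysome RNA, against 0.615 and 0.635 in total RNA. The families known in grasses to trigger phased small RNAs in anthers, MIR2118 and MIR2275, had 1 copy each above 0. MIR2118b had 0.0328 in total RNA replicate 1 alone, and MIR2275d had 0.216 and 0.0414 in polysome RNA, against 0.227 and 0 in total RNA.

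**Figure D2:**
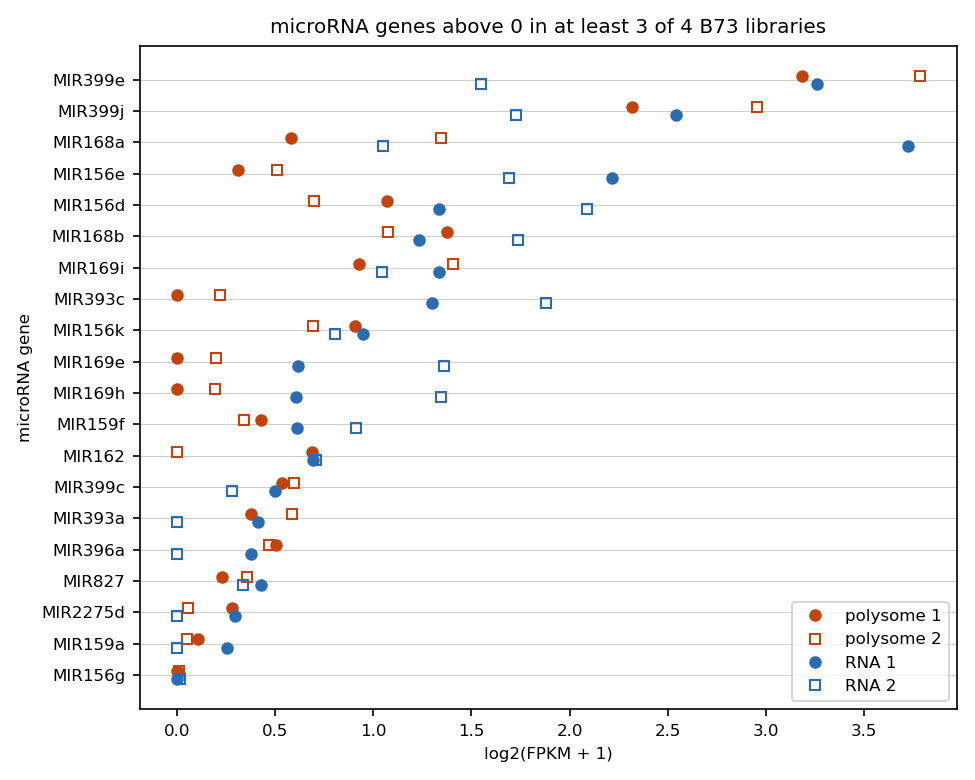
FPKM (log2 of FPKM + 1) of the 20 microRNA genes above 0 in at least 3 of 4 libraries, with 1 point per library for polysome RNA and total RNA. MIR399e and MIR399j are the highest in polysome RNA, and MIR168a has 1 total RNA library far above its other 3. Groups are separate with polysome RNA lower in MIR156d, MIR156e, MIR159f, MIR162, MIR169e, MIR169h and MIR393c. They are separate with polysome RNA higher in MIR396a and MIR399c.

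Polysome RNA was set against total RNA to see which precursor transcripts were relatively more or less frequent on polysomes. The log2 ratio is of FPKM + 1, polysome minus total RNA, from limma fitted over the 19342 features whose FPKM reached 1 in 2 or more of the 4 libraries. Calls needed an adjusted p (Benjamini-Hochberg) below 0.05 together with a log2 ratio of 1 or more in size. The FPKM minimum left 8 of the 149 genes: MIR156d, MIR156e, MIR168a, MIR168b, MIR169i, MIR393c, MIR399e and MIR399j. MIR156e and MIR393c reached an FPKM of 1 in the total RNA libraries alone, so they passed the minimum through the group in which they are high. Of the 8, 2 were lower in polysome RNA, where 5.36% of all features tested were lower. None of the 8 was higher by limma, with 0 at an unadjusted p under 0.05 in that direction, where 16.6% of all features were higher. The FPKM ranges of polysome and total RNA did not overlap, with polysome RNA lower, in 3 of the 8 genes, against 23.1% of all features. They did so with polysome RNA higher in 0 of 8, against 50.1% of all features. Without the FPKM minimum, 48 of the 149 genes entered, and MIR156e and MIR393c alone were called (3.34% of all features lower, 9.62% higher).

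MIR156e and MIR393c fell. MIR156e averaged 0.333 ± 0.128 FPKM in polysome RNA and 2.94 ± 0.997 in total RNA (SD, n = 2 each), a difference of −1.54 ± 0.24 on the log2 scale (SE; adjusted p = 0.00418 in limma). MIR393c averaged 0.0819 ± 0.116 FPKM in polysome RNA and 2.07 ± 0.863 in total RNA (SD, n = 2 each), a difference of −1.48 ± 0.25 on the log2 scale (SE; adjusted p = 0.00519 in limma). Each polysome library lay below each total RNA library in both genes. MIR156d, the third of the 8 tested genes with separate groups, had a log2 ratio of −0.83 with a 95% interval from −1.55 to −0.11. It did not pass (limma adjusted p = 0.0679). Seedlings are mixtures of cell types, and both library types average over them, so the ratios cannot be assigned to a cell type. Whether the make-up of cells differed between the samples was not tested. Whether replicates were separate plants is not stated in the labels, and p-values reflect only how far these samples spread, which may be technical.

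The other 5 genes did not pass, and their intervals were wide. MIR168a had a log2 ratio of −1.42 with a 95% interval from −3.31 to 0.47 (limma adjusted p = 0.195). Its ratio was −0.08 without total RNA replicate 1 (limma adjusted p = 0.886) and −2.76 without total RNA replicate 2 (limma adjusted p = 0.0212), so 1 library decided it. MIR399e had a log2 ratio of 1.08 with an interval from −0.19 to 2.35 (limma adjusted p = 0.15). Its ratio was 1.93 without total RNA replicate 1 (limma adjusted p = 0.0349) and 0.23 without total RNA replicate 2 (limma adjusted p = 0.686). MIR399j had 0.50 (interval −0.32 to 1.33), MIR168b −0.26 (−0.86 to 0.34) and MIR169i −0.02 (−0.61 to 0.56). For MIR169i the interval leaves room for a change of about the same size either way.

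The ratios are relative to the rest of each library. The median log2 ratio was −0.54 over the 8 genes and 0.29 over all features tested. ENSRNA features held 242752 and 240917 of the summed FPKM in polysome RNA, against 694996 and 718704 in total RNA, and 365 of the 452 tested were lower in polysome RNA by limma. Their part in the ratios of the microRNA genes was not tested. With libraries scaled to the median of log ratios the median over all features was 0.00 and that over the 8 genes −0.76. With Zm gene models scaled to equal sums, the medians were −0.21 over all features and −0.91 over the 8 genes. Over all features the calls split into 3220 higher and 1036 lower as deposited, 1428 (7.36%) and 1656 (8.53%) under the first scaling and 675 (3.44%) and 2557 (13.0%) under the second. MIR156d joined MIR156e and MIR393c under both scalings, at −1.03 and −1.19. MIR399e stayed above 0, at 0.78 and 0.56, as did MIR399j, at 0.22 and 0.01.

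**Figure D3:**
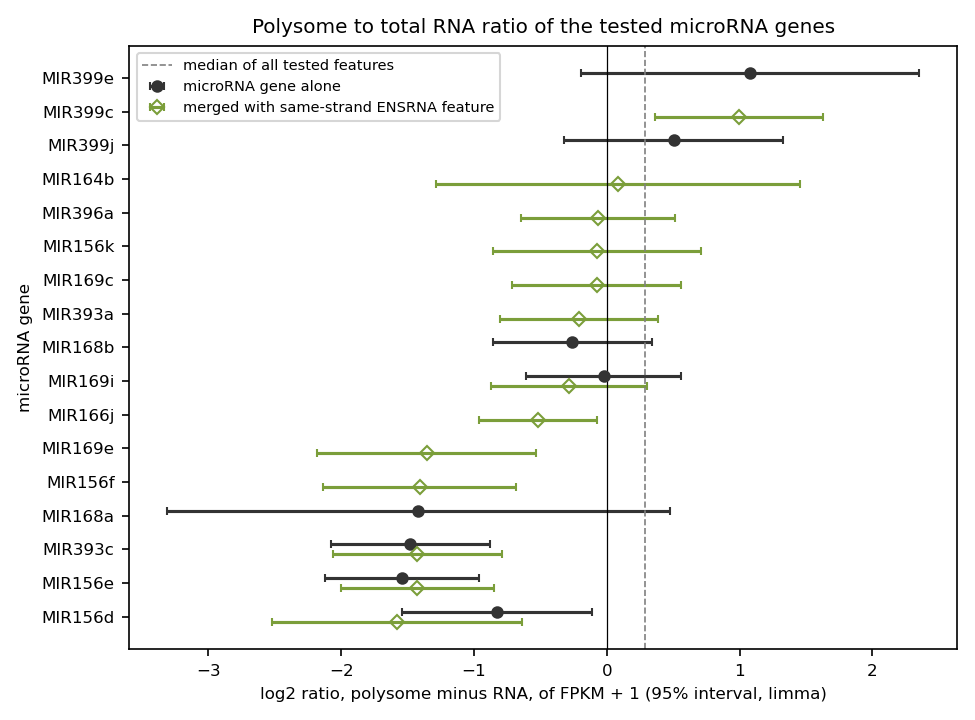
Log2 ratio of FPKM + 1, polysome over total RNA, of the 8 tested microRNA genes (filled points) with 95% intervals from limma (bars), the same after merging with the same-strand ENSRNA feature (open diamonds, also for genes below the FPKM minimum alone), and the median of all tested features (dashed line at 0.29). MIR156e and MIR393c lie below −1, with intervals below 0, while the intervals of MIR168a and MIR399e cross 0.

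Most spans are shared with another feature. Of the 149 genes, 127 overlapped another feature by at least 1 bp and 22 overlapped none. ENSRNA features overlapped 119 of them, 117 on the same strand, and Zm gene models overlapped 16. The ENSRNA feature was the higher one, by mean FPKM, in 30 of 118 same-strand pairs and the microRNA gene in 15, and both were at 0 in 73. Of the 117 genes, 35 were above 0 in some library alone, and 45 when merged with the partner. The merged FPKM weights each feature by its length relative to their joint span, so it is not a plain sum. MIR156f shows the size of the effect: with its partner it had 0.343 and 0.545 in polysome RNA, against 4.12 and 1.86 in total RNA. The sources used here do not say how the authors assigned reads that lie in both features, and a merged value may count a read more than once.

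With the same-strand ENSRNA partner merged in, an alternative chosen after seeing the data, 17 microRNA genes entered the fit, those without a partner included. Of these, 5 were lower in polysome RNA (background 5.36%) and 0 were higher by limma, with 1 at an unadjusted p under 0.05 in that direction (background 16.6%). The 5 were MIR156d at −1.58 (limma adjusted p = 0.0206), MIR156e at −1.43 (0.00512), MIR156f at −1.41 (0.0125), MIR169e at −1.36 (0.0219) and MIR393c at −1.43 (0.00753). MIR399c reached 0.997 (limma adjusted p = 0.0259), just under the ratio required. The median over the 17 was −0.26. MIR156f, MIR169e and MIR393c reached an FPKM of 1 in total RNA alone and so entered through the group in which they are high. The partner of MIR169e covers nearly the same bases, with FPKM of 0 and 0.145 in polysome RNA against 0.530 and 1.55 in total RNA. The merged value of MIR169e may therefore count the same reads again. Tested by themselves, the partners of MIR156d (log2 ratio −1.79, limma adjusted p = 0.0146) and MIR156f (−1.32, limma adjusted p = 0.0321) were lower. The partner of MIR399c was higher (1.07, limma adjusted p = 0.0211), and that of MIR156e was not called (−0.49, limma adjusted p = 0.493). Without the FPKM minimum, none of the partners of MIR156d, MIR156f and MIR399c was called (limma adjusted p = 0.0574, 0.0972 and 0.0656). The partner of MIR156f, at 0.434 and 0.689 in polysome RNA against 4.78 and 1.61 in total RNA, also passed that minimum through total RNA alone.

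Host gene models were followed for the 12 members that lie wholly inside a Zm model, 9 on its strand and 3 on the opposite strand. The largest difference was at Zm00001d003640, which contains MIR2118b and MIR2118d on its own strand. It had FPKM of 5.73 and 5.08 in polysome RNA, against 0.574 and 0.742 in total RNA, a difference of 1.95 ± 0.20 on the log2 scale (SE; adjusted p = 0.00109 in limma). Of all features tested, 16.6% were higher. Zm00001d003640 reached an FPKM of 1 in polysome RNA alone, so it passed the minimum through the group in which it is high. Without the minimum it was still called (limma adjusted p = 0.00796). Its polysome values lay well above its total RNA values, while MIR2118d was at 0 throughout and MIR2118b appeared in 1 total RNA library.

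The host of MIR827 changed the other way. Zm00001d016651 had FPKM of 2.98 and 2.31 in polysome RNA, against 5.46 and 7.73 in total RNA, a difference of −1.05 ± 0.24 on the log2 scale (SE; adjusted p = 0.0152 in limma). MIR827 itself, at 0.171 and 0.279 in polysome RNA against 0.344 and 0.263 in total RNA, was below the FPKM minimum. Zm00001d027041, around MIR168b, had 1.39 and 0.880 in polysome RNA, against 1.55 and 2.08 in total RNA (log2 ratio −0.40, limma adjusted p = 0.198). The levels of MIR168b were of the same size as those of its host, whereas MIR827, MIR2118b, MIR2118d and MIR2275d were each far below theirs.

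The hosts of the other contained members were not called or not tested. Zm00001d006433, around MIR2275d, was the most abundant host, with FPKM of 16.0 and 12.6 in polysome RNA, against 10.4 and 20.9 in total RNA (log2 ratio −0.05, limma adjusted p = 0.909). Zm00001d020500, around MIR156g, had 1.06 and 0.737 in polysome RNA, against 1.63 and 1.36 in total RNA (log2 ratio −0.40, limma adjusted p = 0.163). The hosts of MIR164a, MIR169k and MIR319b stayed under an FPKM of 1 in all libraries. On the opposite strand, Zm00001d042905 at MIR397a (log2 ratio 0.16, limma adjusted p = 0.679) and Zm00001d030666 at MIR482 (−0.56, limma adjusted p = 0.166) were not called. The third, Zm00001d033075 at MIR159e, had 0.0732 in the same polysome library that alone listed MIR159e. A further 4 members, MIR159c, MIR169o, MIR171e and MIR319d, overlapped a model only in part.

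**Figure D4:**
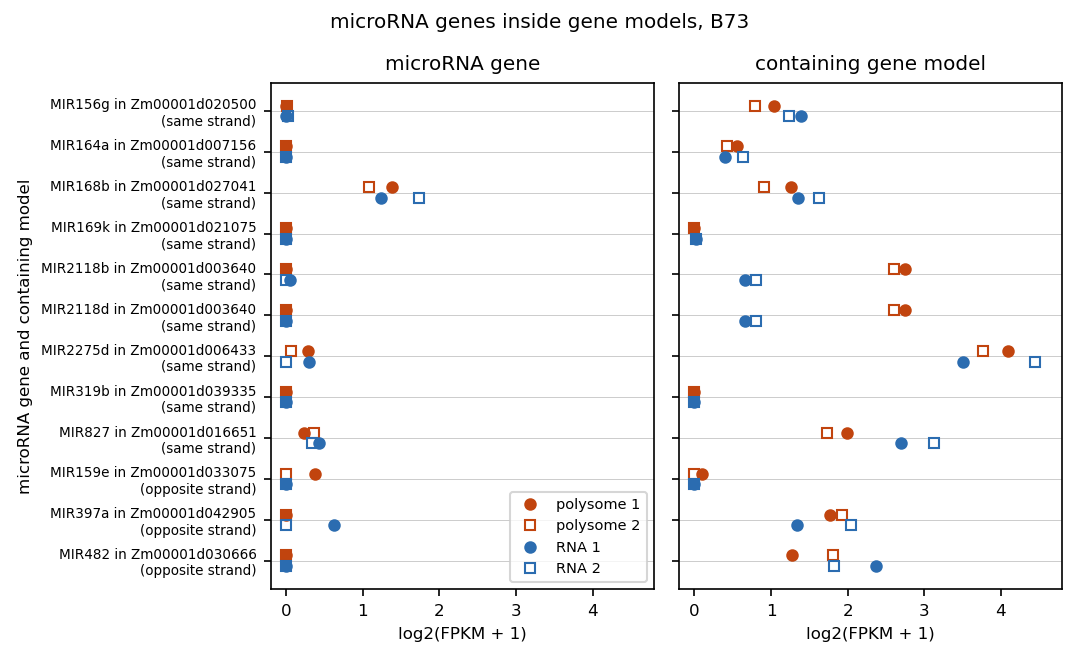
Level (log2 of FPKM + 1) of each microRNA gene that lies inside a Zm gene model (left) and of that model (right), with 1 point per library for polysome RNA and total RNA. The model around MIR2118b and MIR2118d averages an FPKM of 5.41 in polysome RNA and 0.658 in total RNA, and the one around MIR827 averages 2.64 in polysome RNA and 6.59 in total RNA.

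Many copies sit side by side. With gaps of at most 10 kb, 39 members formed 16 clusters, each of a single family, and 11 of the clusters lay on 1 strand. In 9 clusters every copy was at 0. Above 0 in some library were 10 of the 39 clustered members, against 38 of the 110 others. That contrast depends on MIR395, whose copies were all clustered and all at 0. All 13 MIR395 copies were clustered: MIR395k, MIR395l, MIR395m and MIR395c within 584 bp and MIR395n, MIR395o and MIR395p within 580 bp on chromosome 10, and the other 6 within 11901 bp on chromosome 2. Reads that fit several near-identical copies may have been split or dropped in the authors' counting, whose treatment of them the sources used here do not describe, so the level of a single copy in a family is uncertain.

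m6A, a methyl mark on adenosines of messenger RNA, was read from the authors' 2 B73 peak lists of 17399 and 16161 peaks. The position of a peak is its summit, and its fold enrichment is the authors' own value. No microRNA gene had a summit inside its span in either list. Other features in the same length range rarely had 1: in both lists, 0 of 1512 ENSRNA features and 2 of 2970 Zm models did. MIR399f was the single gene with a summit within 1 kb in both lists, which is 0.671% of the 149 genes. The share was 9.52% of ENSRNA features and 6.43% of Zm models in the same length range, and 28.1% of all Zm models. ENSRNA features that overlap microRNA genes were again not left out. The nearest summit was at a median distance of 34660 bp and 34663 bp from the microRNA genes in the 2 lists, against 29896 and 30341 bp from Zm models of that length range.

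The summits near MIR399f (chromosome 6, 163860157 to 163860261, minus strand) lie in a neighbour. They were 128 bp and 138 bp from it, on its downstream side, with fold enrichments of 5.55 and 3.81. Both fall inside Zm00001d038751 (163857513 to 163860102, plus strand), 73 bp and 83 bp from that model's 3′ end, and the model ends 54 bp short of MIR399f. Zm00001d038751 had FPKM of 72.1 and 32.5 in polysome RNA, against 16.7 and 24.3 in total RNA, while MIR399f had 0.198 and 0.240 in polysome RNA and 0 in total RNA. The polysome values are above the total RNA values in both. That pattern was found in 50.1% of all features that passed the FPKM minimum, which MIR399f did not reach. Whether fragments at MIR399f come from the neighbour was not tested.

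Few other members came near a peak. MIR169c (chromosome 2, 11553338 to 11553471, plus strand) had a summit 162 bp upstream in list 1 alone, with a fold of 6.66 and in no gene model. MIR169c had FPKM of 0.201 and 0.145 in polysome RNA and 0 in total RNA. Just outside 1 kb lay summits of MIR171k at 1004 and 1007 bp, MIR167h at 1017 and 1036 bp and MIR2275b at 1049 and 1060 bp. Each of these summits lay in a neighbouring Zm model, which for MIR167h was Zm00001d036642, with FPKM of 53.9 and 53.6 in polysome RNA against 23.0 and 14.1 in total RNA. Among the host models, Zm00001d006433 around MIR2275d had 2 summits in list 1 and 1 in list 2, and the nearest in list 1 was 8537 bp from MIR2275d. Zm00001d030666 opposite MIR482 had 1 summit, in list 2 alone.

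**Figure D5:**
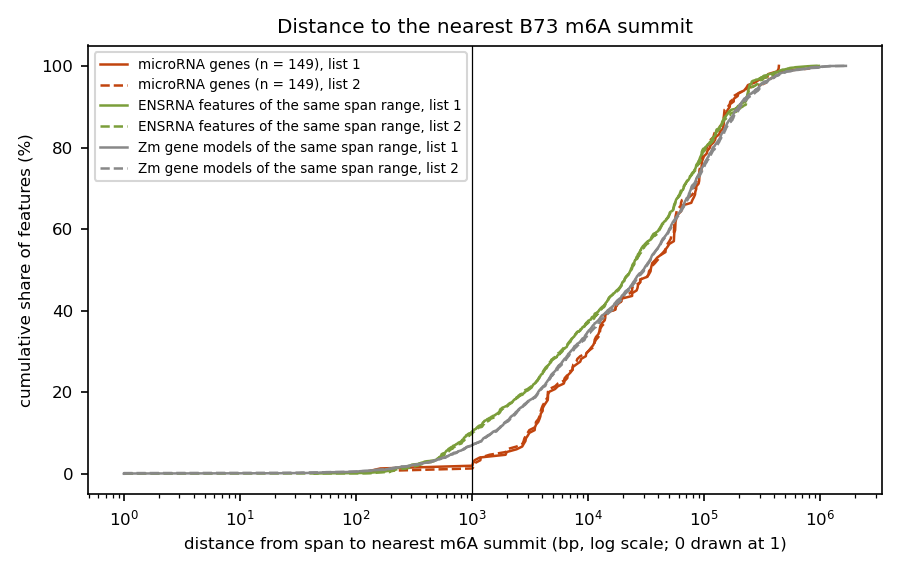
Distance from a feature to the nearest B73 m6A summit (base pairs, log axis) against the cumulative share of features, for microRNA genes, ENSRNA features and Zm gene models of the same length range. At 1 kb the microRNA genes lie below the other groups, and MIR399f is the gene with a summit that close in both lists.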

How the data were processed

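Per the labels' protocols, one DNA library kit was used for all assays. The submitters' processing notes name Trimmomatic 0.35, HISAT2, MACS2 and B73 RefGen_v4. Not given in the sources used here are the annotation, counting tool, strand setting, treatment of multiply aligned reads and peak control. The authors deposited FPKM per feature, 1 table per library; their depth is unknown, since reads could not be recovered from FPKM, and no counting interval is given. The authors deposited 1 peak list per m6A sample, with fold enrichment (a ratio), −log10 p and q values, a score and a summit offset, used only within a list. Starts were converted to 1-based coordinates.

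Members were all identifiers starting zma-MIR other than the 3 copper-responsive families. The members and lists were chosen with earlier results of these data known. Text names members with an FPKM of at least 1 in both replicates of a library type, those in the fit, those with a summit within 1 kb in both lists, those inside a gene model and the highest copy of each family with at least 4 copies; MIR156f, MIR156g, MIR156j, MIR156k, MIR169d, MIR169e, MIR169h, MIR169j, MIR393a, MIR399c, MIR399f and other low copies were added after their values were seen. Overlaps needed at least 1 bp.

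Polysome and total RNA were compared with limma 3.58.1 (R 4.3.3) on log2(FPKM + 1), trend on, over features whose FPKM reached 1 in 2 or more of 4 libraries, with 2 residual degrees of freedom and p-values adjusted over all 19342. This scale understates the change of low genes. The fit was tested on simulated data, where recovery was incomplete when each feature kept its own spread. Changes were simulated only in features more abundant than any of the tested microRNA genes, so recovery at their level was not tested. The simulation was revised after its first version missed the recovery asked of it. Tables were handled with pandas 2.3.3 in Python 3.11.15. Alternatives covered pseudocount, FPKM minimum, scaling, trend, replicate block, single libraries, summit distance and peak strength. No microRNA sequence was in the files used here, so none is printed.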

Additional observations from a re-analysis of the deposited data

How the results depend on the processing

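As deposited, 2 of 8 microRNA genes were called, both lower in polysome RNA. A pseudocount of 5 gave 0 calls, with MIR156e at −0.57 and MIR393c at −0.47 on that flatter scale, where 2.58% of all features were lower and 8.44% higher. An FPKM minimum of 5 left 1 gene, MIR399e, and gave 0 calls, where 6.75% of all 10844 features were lower and 26.0% higher. A replicate block gave 4 calls, 3 lower and 1 higher, with MIR168a (limma adjusted p = 0.0380) and MIR399e (0.0391) added (5.46% of all features lower, 17.3% higher). Same-numbered libraries did not deviate together (r = −0.135 across 19342 features), so the numbers are not taken as pairs. A crossed pairing, chosen after seeing the data, also gave 4 calls, 3 lower and 1 higher (5.46% and 17.2% of all features). Merging with the ENSRNA partner, likewise chosen afterwards, gave 5 calls, all lower. Leaving out 1 library gave 2 to 4 calls, 2 to 3 lower and 0 to 1 higher, where 4.12% to 5.72% of all features were lower and 10.1% to 20.4% higher. The 4 came without RNA replicate 1, where MIR156d (−1.20, limma adjusted p = 0.0432) and MIR399e passed. MIR169i ranged from −0.26 without polysome replicate 2 to 0.22 without polysome replicate 1, and was 0.12 without RNA replicate 1, with no call. The cause of these shifts was not tested. Detected genes, 20 in polysome RNA and 18 in total RNA, became 3 and 8 at an FPKM of at least 1, and 25 to 36 in polysome RNA and 24 to 32 in total RNA when a single replicate was used. The 1 gene with a summit within 1 kb in both lists became 0 inside spans, 7 within 2 kb, 0 for peaks of at least 5-fold, and 1 to 2 with a single list. The depth behind the FPKM values is unknown, and most values of the microRNA genes lie under an FPKM of 1. Its part in these shifts was not tested.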

Other observations

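Among the 8 tested microRNA genes, 2, MIR399e and MIR399j, shared the order polysome replicate 2, RNA replicate 1, polysome replicate 1, RNA replicate 2 from high to low. The same order was found in 239 of the 19342 features tested, or 1.24%. The order was noticed in the values and is given as a description, with no test.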
